A study of Mus musculus with 6 samples.

Results

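Enhancers that lie inside genes were examined through H3K27ac, the acetylation of histone H3 that is found at active promoters and enhancers. Both H3K27ac and the bZIP factor Maf had been mapped by ChIP-seq in nuclei of the gastrocnemius and quadriceps, the large fast muscles of the mouse hindlimb, from wild-type C57BL/6N mice aged 2 months, so that no allele or treatment separated the samples. There were 2 H3K27ac samples, 2 Maf samples and 2 inputs, and each pair is labelled as biological replicates. The chromatin came from whole muscle, and nuclei of fibers, vessels, connective tissue and immune cells were not separated, so that fewer nuclei of a type cannot be told apart from less of the mark per nucleus. Overlapping or touching regions of the 2 H3K27ac lists, which held 44887 and 44987 regions, were joined into 52531 regions on the 19 autosomes and the sex chromosomes. Of these, 35202 (67.0%) held bases of both lists, 34378 were also shorter than 10000 bp, and 23003 of these had no base within 1 kb of a protein-coding transcript start. The 13733 regions among them whose centre lay inside a protein-coding gene are the intragenic distal H3K27ac regions, and they make up 26.1% of all joined regions. They were chosen by the H3K27ac lists and the GENCODE annotation, so their number, length, place in genes and agreement between lists are descriptions with no test. The position of Maf peaks and the DNA sequence were not used in choosing them. Read numbers were not part of the lists, and sequencing depth is therefore unknown. Percentages of regions carry 95% Clopper-Pearson intervals, which cover counting error over regions only.

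A gene is transcribed from its promoter, but the sequences that set its level in a tissue often lie in its introns. At such an enhancer, transcription factors bind short motifs, recruit acetyltransferases such as p300 and Cbp, and the nucleosomes beside them become acetylated. In skeletal muscle the best known of these factors are the myogenic bHLH proteins, which bind E-boxes, together with Mef2 and Tead factors. Large Maf factors bind an element that contains TGCTGAC and are known in muscle for driving the fast IIb fiber program.

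Of the intragenic distal regions, 1146 (8.34%, interval 7.89 to 8.82) overlapped a Maf peak, against 8.75% of all 34378 regions of both lists under 10 kb. All 1146 were reached by a peak of the Maf replicate 2 list, which holds 5467 peaks, and 15 also by a peak of the replicate 1 list, which holds 74. The sequences shown first are the stretches shared by the peaks of both Maf lists in 5 of these 15 regions, because these are the best replicated Maf sites inside the regions. They are from the RefSeq genome of build GRCm38, and capitals mark the Maf motif TGCTGA on either strand, which reads TCAGCA on the other.
Bach2, chr4:32531524-32531704, plus strand: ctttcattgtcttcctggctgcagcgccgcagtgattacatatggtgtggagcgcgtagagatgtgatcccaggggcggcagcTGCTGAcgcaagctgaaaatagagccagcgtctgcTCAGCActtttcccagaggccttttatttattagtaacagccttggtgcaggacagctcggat
Fgf20, chr8:40296806-40296986, plus strand: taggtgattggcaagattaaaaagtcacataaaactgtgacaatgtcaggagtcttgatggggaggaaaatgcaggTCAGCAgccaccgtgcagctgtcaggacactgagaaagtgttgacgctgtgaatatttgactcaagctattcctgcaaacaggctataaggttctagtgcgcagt
Tmod1, chr4:46087934-46088114, plus strand: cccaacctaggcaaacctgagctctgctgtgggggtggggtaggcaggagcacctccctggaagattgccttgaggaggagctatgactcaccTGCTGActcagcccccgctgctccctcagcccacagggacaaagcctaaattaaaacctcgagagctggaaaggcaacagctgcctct
Limch1, chr5:66760995-66761172, plus strand: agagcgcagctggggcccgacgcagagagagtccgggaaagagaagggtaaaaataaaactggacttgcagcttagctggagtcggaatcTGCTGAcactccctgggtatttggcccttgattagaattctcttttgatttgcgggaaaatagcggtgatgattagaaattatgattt
Sirt2, chr7:28780949-28781129, plus strand: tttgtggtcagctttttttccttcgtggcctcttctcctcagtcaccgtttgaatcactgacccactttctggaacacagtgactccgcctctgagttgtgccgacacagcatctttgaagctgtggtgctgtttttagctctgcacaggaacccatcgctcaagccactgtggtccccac
The Bach2 stretch, in intron 4 of a gene for a bZIP repressor, held 2 such motifs, and the Sirt2 stretch, in intron 8 of a gene for an NAD-dependent deacetylase, held none. Over all 15 stretches, 12 held TGCTGA and 7 held the longer TGCTGAC. In 200 bp windows at the 1167 Maf replicate 2 peaks that lay in intragenic distal regions, TGCTGAC was found in 27.7% (25.1 to 30.3), against 4.38% (4.05 to 4.74) at the region centres and 3.68% at the centres of all regions of both lists under 10 kb.

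A second set of sequences shows some of the motifs that were more frequent at region centres than beside the regions. These examples were picked after the matches had been seen. Capitals mark CAGCTG, the E-box of myogenic bHLH factors, with a Mef2 motif in Sntb1, with a Mef2 motif and TTGGCA of nuclear factor I in Nrap, and with the homeobox factor motif MEF3 in Synpo2. They mark the glucocorticoid receptor (GR) motif in Fkbp5 and the D-box of PAR bZIP factors in Per2.
Sntb1, chr15:55791467-55791566, plus strand: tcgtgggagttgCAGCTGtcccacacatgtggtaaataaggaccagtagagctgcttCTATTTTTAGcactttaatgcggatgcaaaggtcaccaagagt
Nrap, chr19:56378590-56378789, plus strand: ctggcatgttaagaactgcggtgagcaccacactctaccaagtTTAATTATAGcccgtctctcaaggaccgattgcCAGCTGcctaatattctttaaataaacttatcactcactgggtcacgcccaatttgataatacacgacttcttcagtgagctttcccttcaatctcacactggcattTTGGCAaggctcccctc
Synpo2, chr3:123174177-123174376, plus strand: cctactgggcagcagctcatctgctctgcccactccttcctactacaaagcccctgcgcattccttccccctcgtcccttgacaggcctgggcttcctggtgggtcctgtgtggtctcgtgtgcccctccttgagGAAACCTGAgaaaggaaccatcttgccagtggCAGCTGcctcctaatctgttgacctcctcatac
Fkbp5, chr17:28420257-28420456, plus strand: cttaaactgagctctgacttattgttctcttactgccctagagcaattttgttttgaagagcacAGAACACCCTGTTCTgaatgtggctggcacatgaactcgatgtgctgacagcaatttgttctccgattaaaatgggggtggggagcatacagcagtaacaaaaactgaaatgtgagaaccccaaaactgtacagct
Per2, chr1:91442570-91442669, plus strand: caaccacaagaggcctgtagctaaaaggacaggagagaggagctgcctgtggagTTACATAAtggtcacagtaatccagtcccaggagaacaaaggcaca
Sntb1 encodes a syntrophin of the dystrophin complex, and Nrap and Synpo2 encode actin-binding proteins of the myofibril. Fkbp5 is a classic glucocorticoid-induced gene and Per2 a core clock gene. The Nrap region measured 1047 bp in H3K27ac replicate 1 and 1189 bp in replicate 2, and the Fkbp5 region in intron 8 measured 3817 and 3351 bp. The Per2 region in intron 6 was shorter, with 501 and 794 bp. Such matches were rare. A GR motif stood within 200 bp at the centre of 55 intragenic distal regions (0.400%), against 0.361% of all regions of both lists under 10 kb, and CAGCTG with MEF3 in 15 regions (0.109%), against 0.0698%.

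The intragenic distal regions were short, and both lists gave them similar lengths. The joined length had a median of 1804 bp and ranged between 502 and 9995 bp, with the middle 50% between 1286 and 2744 bp. Replicate 1 covered a median of 1564 bp of a region and replicate 2 a median of 1606 bp. In 13066 regions (95.1%) each list held a single piece, and in 93.5% the bases of the lists lay within a factor of 2 of each other. The bases shared by both lists made up a median of 77.0% of the joined region. This share was 65.0% in regions under 1000 bp and 84.7% in regions of 4000 bp or longer. The shortest value the lists give is 501 bp, and 345 regions had this value in both. Regions that met the same rule but were called in a single list numbered 10525 and had a median length of 501 bp. They overlapped a Maf peak in 1.40% (1.18 to 1.64), against 8.34% of the regions of both lists. Among regions of both lists under 1000 bp the share was 2.37% (1.70 to 3.21). The part of length in this difference was not tested.

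**Figure D1:**
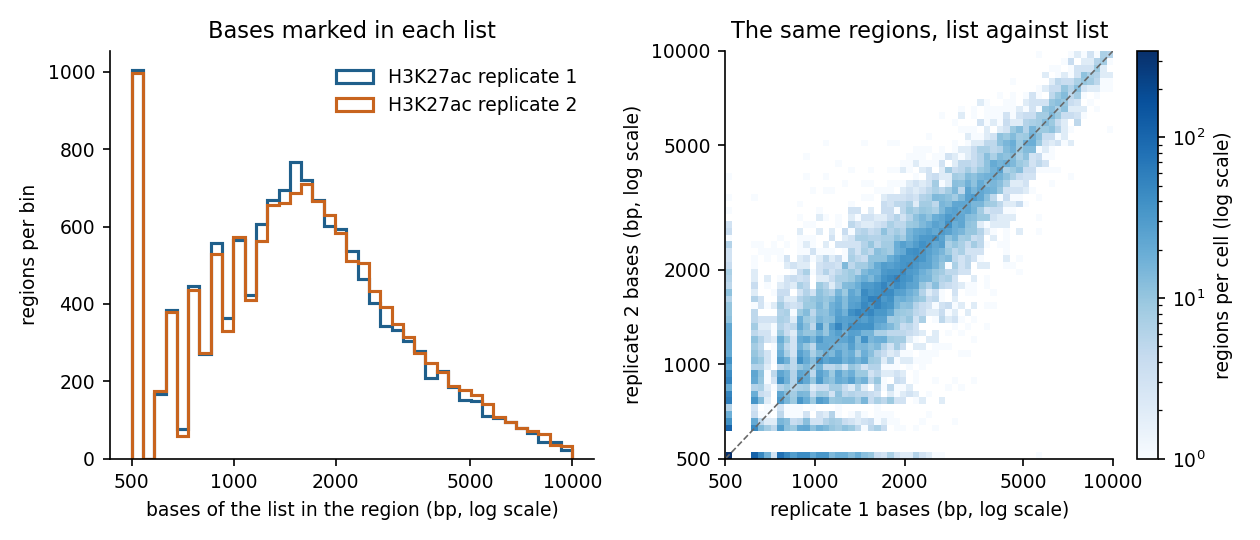
Left, number of intragenic distal regions (y axis) by the bases that H3K27ac replicate 1 or replicate 2 marks in the region (x axis, log scale), and right, the bases of replicate 2 against those of replicate 1 for the same 13733 regions, with darker cells holding more regions and the dashed line marking equal values. The curves of both replicates nearly coincide, with medians of 1564 and 1606 bp, and each has a pile at the shortest value of 501 bp.

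The longest regions included some in genes of the triad and the actin cytoskeleton. The first was in intron 2 of Jph1, which encodes a junctophilin that ties the T-tubule to the sarcoplasmic reticulum. It measured 9995 bp in replicate 1 and 8126 bp in replicate 2. Capzb, whose product caps actin filaments at the Z-disc, held 8984 and 9736 bp in intron 6. Others of the 10 longest regions lay in Uaca, Sema7a, Fam53b, Tom1, Mapt, Tom1l2 and Kcnma1, and 6 of the 10 regions lay in a first intron. Of all intronic regions that could be numbered 32.5% did, and the 10 were not tested against this share. Sema7a was the one with unequal lists, at 5767 and 9960 bp. Just outside the limit of 10000 bp stood regions of 10066 bp in Cd9, 10109 bp in Atp6v0a1 and 10126 bp in Ric8b. At the limit of 1 kb from a start, the nearest regions inside lay 1005 bp away in Fbxo6 and 1010 bp away in Fam168a, and the nearest one outside 998 bp away in Apbb2.

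Intragenic distal regions were mostly intronic, as gene bases are, and densest between 5 and 20 kb from a start. Their centre lay in an intron in 12654 cases (92.1%, interval 91.7 to 92.6), in an untranslated part of an exon in 480 (3.50%) and in coding sequence in 401 (2.92%). The other 198 lay in parts of a gene that no protein-coding transcript spans. Of 993 Mb of gene bases more than 1 kb from a start, 208 Mb lay in first introns, 643 Mb in later introns and 56.3 Mb in exons. Of the 11858 intronic regions that could be numbered in the main transcript of the gene, 3848 (32.5%) were in the first intron and 2032 (17.1%) in the second. The nearest protein-coding start was a median of 18892 bp away, and in 11346 regions (82.6%) it was a start of the gene that held the region.

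Counted against the gene bases available at each distance, the regions covered 4.73% of the bases between 10 and 20 kb from a start and 1.12% of those beyond 100 kb. Nearer than 2 kb the share was 0.473%, where the rule itself leaves little room. First introns were covered more densely than later ones. Between 5 and 10 kb from a start the share was 6.46% of the bases of first introns and 3.68% of those of later introns. Beyond 100 kb the order was reversed, at 0.864% and 1.18%. Over all distances it was 4.48% in first introns, 2.84% in later introns and 2.75% in exons. Along the length of the gene, the share was highest between 10% and 20% of the way from the 5′ end, at 3.94%, and lay between 2.97% and 3.90% farther along.

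**Figure D2:**
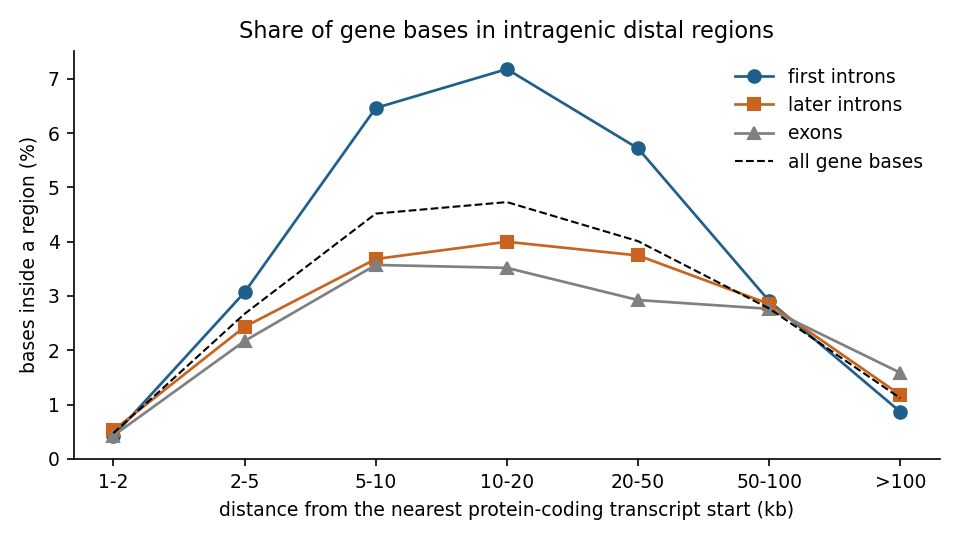
Share of bases that lie inside an intragenic distal region (y axis, percent) by the distance from the nearest protein-coding transcript start (x axis, kb), for bases of first introns, later introns and exons and for all gene bases. First introns reach the highest shares between 5 and 20 kb, where 6.46% and 7.18% of their bases are covered, and all curves are low next to the start, where the rule leaves little room, and beyond 100 kb.

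Among chromosomes that held a region, the density per megabase of gene was highest on chromosome 11, at 18.5 regions, and lowest on the X, at 7.46. No region lay on the Y, where the genes span 3.02 Mb. Regions in the same gene were often close to each other, with a median gap of 8392 bp between neighbours. Within 1 kb of a start of an annotated noncoding gene lay 709 regions (5.16%), 83 of them at a microRNA. Among these, chosen after the list was seen, were Mir133c in Med27, with 1089 and 1366 bp in replicates 1 and 2, Mir26a-1 in Ctdspl, with 2392 and 3310 bp, and Mir21a in Vmp1, with 4506 and 3934 bp. Mir133c belongs to a microRNA family of muscle.

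At least 1 intragenic distal region was found in 5261 of 21938 protein-coding genes (24.0%). Most of these genes held few, as 2562 had 1 and 196 had 10 or more. Genes with a region were long, with a median length of 58895 bp, against 11591 bp for genes without. The presence of a promoter region with H3K27ac went with the intragenic regions, although the readout is the same for both. Among genes of 50 to 100 kb, 61.9% (59.6 to 64.2) of 1793 genes with a marked promoter held an intragenic distal region, against 24.1% (21.0 to 27.4) of 722 genes without one. Over all lengths, 12433 of the 13733 regions (90.5%) lay in a gene with a marked promoter.

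Among the genes with the most regions were those of the transcription factors Rora, Zbtb20 and Nfib. Rora, a nuclear receptor of the clock that also acts in metabolism, held 53 regions over 734461 bp (chr9:68653786-69388246 in GENCODE, GRCm38), which covered 16.1% of the gene. Its regions measured between 740 and 6834 bp, and 5 of them overlapped a Maf peak. Of all intragenic distal regions 8.34% did so, and no single gene was tested against this share. Zbtb20, a zinc finger repressor, held 35 regions, and Nfib, a nuclear factor I gene, held 30, of which 17 lay inside its shorter RefSeq span. Gse1 also held 30, with 5 at Maf peaks. Msi2, an RNA-binding protein gene, held 29 that covered 24.4% of the gene, with 6 at Maf peaks. Pde4d, a cAMP phosphodiesterase gene, held 26, and Rad51b, a DNA repair gene, held 24, none of them with Maf. By count, the models Gm20388 (140 regions), Fgfr2 (61) and Gm37240 (30) also stood among the first 10. The GENCODE model of Fgfr2 spans 2960900 bp, while RefSeq gives the gene 104358 bp, and none of the 61 regions lay inside that span. The Gm20388 and Gm37240 models span 4434882 and 1391093 bp and have no RefSeq protein-coding counterpart by name. How many of their regions lie in shorter genes under them, and how many between such genes, was not counted. Of all 13733 regions, 13344 (97.2%) were centred in a RefSeq protein-coding gene.

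Among genes over 20 kb, the largest covered shares were found in Pcdhgc5 (59.4%), Sema7a (55.9%), Ube2n (53.7%), Dag1 (53.2%) and Igfbp7 (50.6%). Dag1, the dystroglycan gene that links the dystrophin complex to laminin, held 5 regions in 59325 bp. The longest of them, in intron 2, measured 7644 bp in replicate 1 and 8841 bp in replicate 2. Igfbp7 held 6 regions in intron 2, and its lists differed more. The region of 4979 bp had 1106 bp in replicate 1 and 4979 bp in replicate 2, and 1 of 3649 bp had 1121 and 3649 bp. Pcdhgc4, Traf2, Bpgm and Glipr2 were also among the first 10. The model of Pcdhgc5 lies inside that of Pcdhgc4, and both count the same 2 regions.

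**Figure D3:**
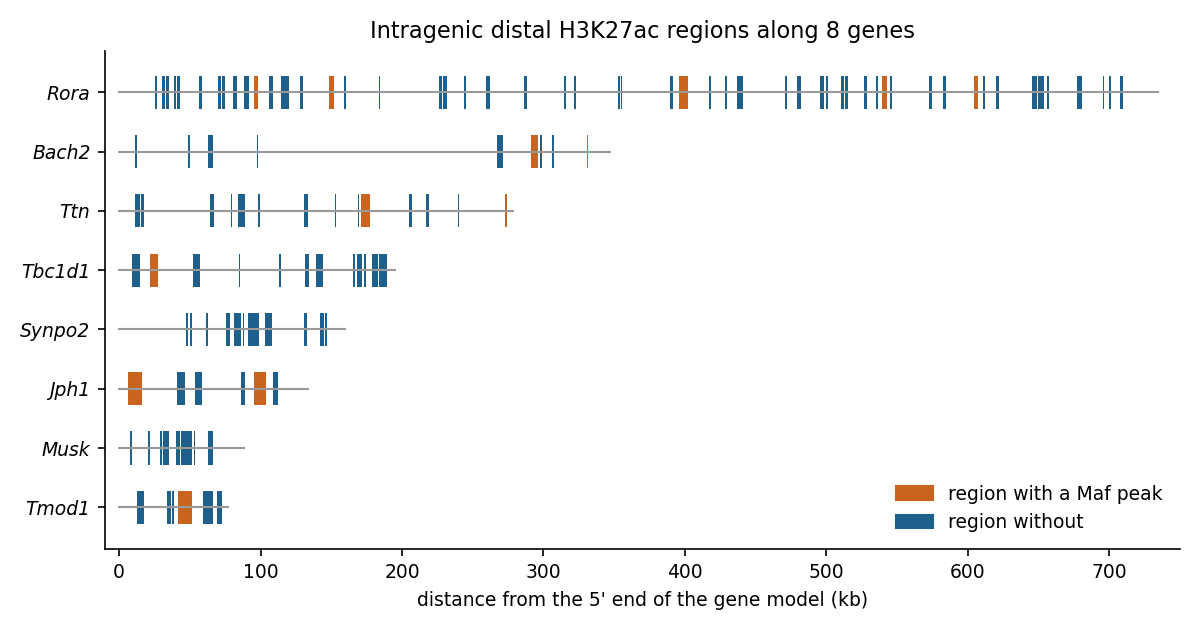
Position of each intragenic distal region (boxes, width to scale) along the models of 8 genes, as distance from the 5′ end of the gene model in kb (x axis), with regions that overlap a Maf replicate 2 peak in orange and the others in blue. The 53 regions of Rora are spread over its whole length, while the 11 of Synpo2 begin about 48 kb into the gene and the 8 of Musk lie within its first 70 kb.

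In the lists of muscle genes, the share with an intragenic distal region is given beside the 24.0% of all protein-coding genes, with no test, since list, gene length and H3K27ac are not independent here. Of genes with a marked promoter, 14.9% held a region at 5000 to 20000 bp and 39.3% at 20000 to 50000 bp. At 50000 to 100000 bp 61.9% did, and at 100000 to 200000 bp 78.3%. Their densities were 14.3, 19.8, 22.7 and 23.5 per megabase. Genes of giant filaments and the Z-disc held a region in 17 of 24 cases, with 44.3 regions per megabase, against 13.2 for all protein-coding genes. Their median length was 48084 bp. Ttn, which encodes titin, held 14 regions. The longest, in intron 186, measured 6361 bp in replicate 1 and 6695 bp in replicate 2 and had a Maf peak. Synpo2 held 11 regions and Pdlim5 8. Insulin signaling and glucose uptake genes held a region in 18 of 22 cases, at 38.1 per megabase and a median length of 89839 bp. Tbc1d1 and Deptor held 12 each, Igf1r 9 and Insr, the insulin receptor gene, 8. Tbc1d1 encodes a Rab GTPase-activating protein that restrains glucose transporter traffic.

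Genes of myogenic, Mef2 and fiber type factors held a region in 26 of 40 cases, at 35.6 per megabase. Their median length was 65574 bp, and 97.5% had a promoter region. Nfia held 23 regions, Hdac4, a class IIa deacetylase that represses Mef2, 18 and Sox6, a repressor of slow fiber genes, 17, all of them also inside the RefSeq spans, against 17 of the 30 of Nfib. Of the 17 Sox6 regions, 4 had a Maf peak, against 8.34% of all intragenic distal regions, with no test of single genes. Atrophy and glucocorticoid genes, with a median length of 18821 bp, held a region in 13 of 26 cases, at 49.3 per megabase. Smad3 had 9, Zbtb16 7 and Fkbp5 6. Calcium handling and triad genes held a region in 16 of 26 cases (61.5%), at 20.9 per megabase. Their median length was 62144 bp, and 92.3% had a promoter region. Both values were near the 61.9% and 22.7 per megabase of genes of 50000 to 100000 bp with a marked promoter. Itpr1, an inositol trisphosphate receptor gene, had 12, of which 4 overlapped a Maf peak. Camk2b, a calmodulin kinase gene, and Cacna2d1, a calcium channel subunit gene, had 9 each, and Jph1 had 6. Dystrophin complex and costamere genes held a region in 15 of 22 cases (68.2%), at 12.5 per megabase, which is below the value for all genes, with 16 in Ank3, 12 in Sptb, which encodes a spectrin, and 8 each in Dtna and Tln2. Their median length was 147124 bp. Genes of 100000 to 200000 bp with a marked promoter held a region in 78.3% of cases.

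In the other lists of muscle genes, between 23.1% and 48.0% of the genes held an intragenic distal region. A promoter region was present in 55.4% of all protein-coding genes. Of 18 fast sarcomere genes, 6 held an intragenic distal region, at 22.6 per megabase, while all 18 had a promoter region. Myh4, the myosin heavy chain gene of IIb fibers, held 2. They measured 1447 and 2160 bp in replicate 1, and 2650 and 1810 bp in replicate 2. Mylk4 had 3, and Myom2 and Smyd1 2 each. Actn3, the fast fiber actinin gene, held 1 region, with 2164 and 2260 bp. Mybpc2, Atp2a1 and Ckm, for a fast myosin-binding protein, the fast calcium pump and the muscle creatine kinase, held none. These genes had promoter regions and span 22958, 17251 and 18066 bp. The rule leaves out any region that reaches within 1 kb of a start, so acetylation running on from a promoter is not counted. Among glycolysis, glycogen and creatine kinase genes 11 of 29 held a region, at 23.6 per megabase, with 8 in Gpd2, 5 in Phkb and 4 each in Ugp2 and Gbe1. Among regulators of oxidative metabolism 12 of 25 did, at 16.8 per megabase, with 8 in Esrrg, 6 in Ppard, 4 in Ppargc1b and 3 in Prkaa2. Slow fiber genes held a region in 3 of 13 cases, at 11.8 per megabase and with 61.5% of promoters marked, namely Tnnt1 with 2 and Mb and Tnni1 with 1 each. Developmental muscle genes did so in 6 of 23 cases, at 7.69 per megabase and with 47.8% of promoters marked, with 4 in Tead4 and 2 each in Myl4, Col22a1 and Pax3. The clock list held 69 regions, at 41.8 per megabase, of which 53 were in Rora, while 8 of its 20 genes had any. Per2 held 4, Hlf, a PAR bZIP factor gene, 3 and Cry1 2. Of 20 neuromuscular junction genes 8 held a region, at 6.0 per megabase, and 14 had a promoter region. Musk, the receptor kinase of the synapse, had 8, the largest with 7334 bp in replicate 1 and 8083 bp in replicate 2. Dok7, its cytoplasmic activator, had 3, Colq 2 and Erbb4 1.

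Marker genes of other cells in whole muscle held intragenic distal regions too, and their part in the counts above was not tested. The counts below are given beside the 24.0% of all protein-coding genes, with no test. Gene length and promoter mark differ between these lists too. The 8 endothelial genes had a median length of 93766 bp, and all had a promoter region. Of 8 endothelial genes 6 held a region, with 8 in Flt1, 4 in Erg and 3 each in Pecam1 and Tek. Of 8 fibro-adipogenic genes 5 did, with 2 each in Gsn, Col1a1 and Dpt and 1 in Col1a2. All 5 genes of smooth muscle and pericytes held 1 or more, with 3 in Myh11, 2 each in Pdgfrb and Rgs5 and 1 in Notch3. Satellite cell genes held single regions in 3 of 5 cases, in Pax7, Myf5 and Vcam1. Macrophage genes held single regions in 2 of 6 cases, in Cd163 and Mrc1, and tendon genes in 2 of 5, with 2 in Thbs4 and 1 in Scx. Of the Schwann cell genes Mbp alone had regions, 3 in number, and of the adipocyte genes Plin1 alone, with 1. Long neuronal genes held a region in 11 of 24 cases but at 0.839 per megabase, with 7 in Opcml, 4 in Ptprd and 3 each in Asic2 and Gpc6. No region was found in the 21 liver genes, which allows a share of up to 16.1% (upper Clopper-Pearson bound). These genes were short, with a median of 10343 bp, and no promoter among them was marked. Of all genes of 5000 to 20000 bp without a marked promoter, 3.91% held a region.

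The next comparison asked whether Maf occupied intragenic distal regions as often as other regions of both lists under 10 kb. A Maf peak was found in 8.34% of the 13733 intragenic distal regions, against 8.93% (8.41 to 9.47) of 11375 promoter regions, 9.07% (8.32 to 9.87) of 5367 intergenic regions within 50 kb of a start and 9.20% (8.31 to 10.1) of 3903 intergenic regions farther away. The differences were -0.59 percentage points to promoters (interval -1.29 to 0.11), -0.73 to near intergenic regions (-1.65 to 0.15) and -0.85 to far ones (-1.90 to 0.14). None passed a two-sided exact test of Fisher (adjusted exact p = 0.107 in each of the 3 comparisons). Regions are not replicates, so the test describes these lists. The result depended on region length, with which the Maf share was higher. In intragenic distal regions the share was 2.37% under 1000 bp, 5.79% from 1000 to under 2000 bp, 9.98% from 2000 to under 4000 bp and 19.9% from 4000 bp on. Within strata of length the share was lower than in near and far intergenic regions (Mantel-Haenszel differences of -1.29 and -1.61 points, adjusted chi-square p = 0.00497 and 0.00292) and higher than in promoter regions (0.91 points, adjusted chi-square p = 0.0122). With H3K27ac replicate 1 left out, the differences to promoter, near and far intergenic regions were -2.50, -1.13 and -1.19 points, and with H3K27ac replicate 2 left out -2.21, -0.95 and -0.84 points, all past the threshold. With Maf replicate 2 left out, 0.109% of the intragenic distal regions had a Maf peak.

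**Figure D4:**
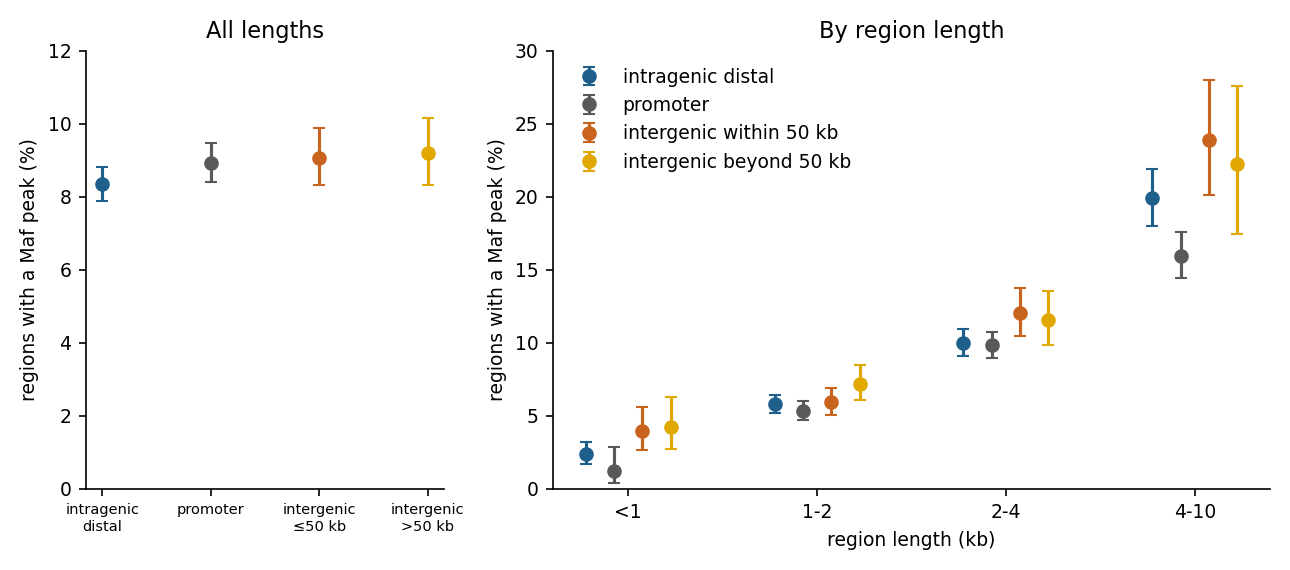
Share of regions that overlap a Maf peak (y axis, percent, with 95% Clopper-Pearson intervals) in intragenic distal, promoter and intergenic H3K27ac regions, for all lengths together (left) and by region length in kb (right). The 4 classes lie between 8.34% and 9.20% on the left, while on the right the share of intragenic distal regions rises with length, at 2.37% in the shortest and 19.9% in the longest.

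Maf peaks lay toward the middle of the regions, at a median of 26.0% of the way to the edge when 0% is the centre. Regions with a Maf peak had a median length of 2656 bp and those without 1762 bp. The Maf share was 8.35% in introns, 7.08% in untranslated exon parts and 9.23% in coding exons, with overlapping intervals. It was 6.43% (4.28 to 9.22) within 2 kb of a start and 9.19% (7.53 to 11.1) beyond 100 kb.

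The 15 regions with peaks of both Maf lists lay in Jph1, Pfkfb3, Bach2, Tmod1, Aunip, Pex10, Limch1, Sirt2, Fgf20, Frs2, Gemin5, Pitpna, Exd2, Zhx2 and Mrtfb. Both lists give no score that differs between peaks, and whether their order follows strength is not stated, so positions are given as they stand. The Bach2 peak stood at position 3 in replicate 1 and 9 in replicate 2, in a region of 4408 bp in H3K27ac replicate 1 and 4479 bp in replicate 2. The Fgf20 peak stood at positions 4 and 7, in a region of 2483 and 2700 bp. It lay in the GENCODE model of this growth factor gene but outside its RefSeq span. Tmod1, whose product caps the pointed ends of thin filaments, had the Maf peak at positions 54 and 37, in intron 4, in a region of 9064 and 9310 bp. Pfkfb3, for an enzyme that sets the rate of glycolysis, had it at 12 and 329, and Mrtfb, a coactivator of serum response factor, at 21 and 153. In the replicate 2 list alone, intron 4 of Arid1b, a chromatin remodeler subunit, stood at position 2 and intron 14 of Sox6 at position 10. Tacc2 (14), Slc8a3 (24), Mast4 (25), Fam69a (28) and Lrrc49 (29) followed. The Tacc2 region also counts for the long Fgfr2 model.

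The motifs in the regions were compared with those beside them. Of 24 motifs searched on both strands, 14 were more frequent and 2 less frequent in the 500 bp at the region centre than in 500 bp windows starting 1 kb beyond both edges (exact McNemar test, two-sided, adjusted p under 0.05 over 48 tests). Flank windows that touched any H3K27ac region were left out, which left 22865 pairs. The E-box CAGCTG had the largest difference. It was present in 33.8% of centres and 21.0% of flanks (adjusted exact p = 2.50e-103), and in 30.9% of the centres of all regions of both lists under 10 kb. All regions here include promoter regions and the intragenic distal regions themselves. TTGGCA, a short form of the nuclear factor I site, was present in 30.3% of centres and 22.8% of flanks (adjusted exact p = 4.89e-33), against 26.0% in all regions. AP-1 motifs (TGACTCA or TGAGTCA) were present in 12.6% and 8.49% (adjusted exact p = 9.88e-18), and Mef2 motifs in 11.8% and 8.54% (adjusted exact p = 1.57e-13), against 10.5% and 8.52% in all regions. TGCTGAC, the Maf motif, was present in 10.2% of centres and 7.52% of flanks (adjusted exact p = 5.93e-11), against 8.79% in all regions.

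The other motifs that were higher at the centre were the short Maf motif TGCTGA, which every TGCTGAC contains, and further GGGCGG of Sp1, GGAAAA of NFAT, the Tead motif GGAATG, the forkhead motif TGTTTAC, the D-box (TTACGTAA or TTATGTAA), the GR motif, MEF3 (TCAGGTTTC) and CTCF. The GR motif was rare but had the largest ratio of these, at 0.988% of centres and 0.354% of flanks (adjusted exact p = 2.36e-07). The D-box stood at 3.44% and 2.31% (adjusted exact p = 2.16e-06), and MEF3 at 1.11% and 0.595% (adjusted exact p = 0.000994). In all regions of both lists under 10 kb, promoter regions included, the same windows held GR in 0.788%, the D-box in 2.69% and MEF3 in 0.931%. A stretch can count for several motifs, since TGCTGAC can run into an AP-1 motif and TTGGCA into the palindrome of nuclear factor I. The E-box CAGGTG, known for Zeb repressors as well as bHLH factors, went the other way, at 27.8% of centres and 33.3% of flanks (adjusted exact p = 8.29e-15), and TGTGGTT of Runx stood at 11.2% and 12.7% (adjusted exact p = 0.00349). The 8 motifs that did not pass were CACGTG, TGACGTCA of Creb, TCAAGGTCA of estrogen-related receptors, the Ror element, the nuclear factor I palindrome, CCGGAAGT of Ets factors, SRF and NRF1. Of the 24 motifs read backwards, 1 was higher and 3 were lower at the centre. The one that was higher was Sp1, which is rich in G and C in either direction. Read backwards it stood at 10.8% of centres and 6.75% of flanks (adjusted exact p = 1.89e-26). GGGCGG itself stood at a similar 10.6% and 6.21%. Centres had a median GC content of 47.2% and 15.2% of bases in repeats, and flanks had 44.8% and 25.2%. The part of GC content in the motif differences was not tested. With bases in repeats left out of the search, an alternative chosen after seeing the data, Runx was higher at the centre, and the other 15 called motifs kept their direction and call. The difference of CAGGTG was then -2.03 points, against -5.56 with all bases, while that of GGAATG was 3.45 points, against 1.90, and that of TGCTGA 6.94 points, against 4.45.

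**Figure D5:**
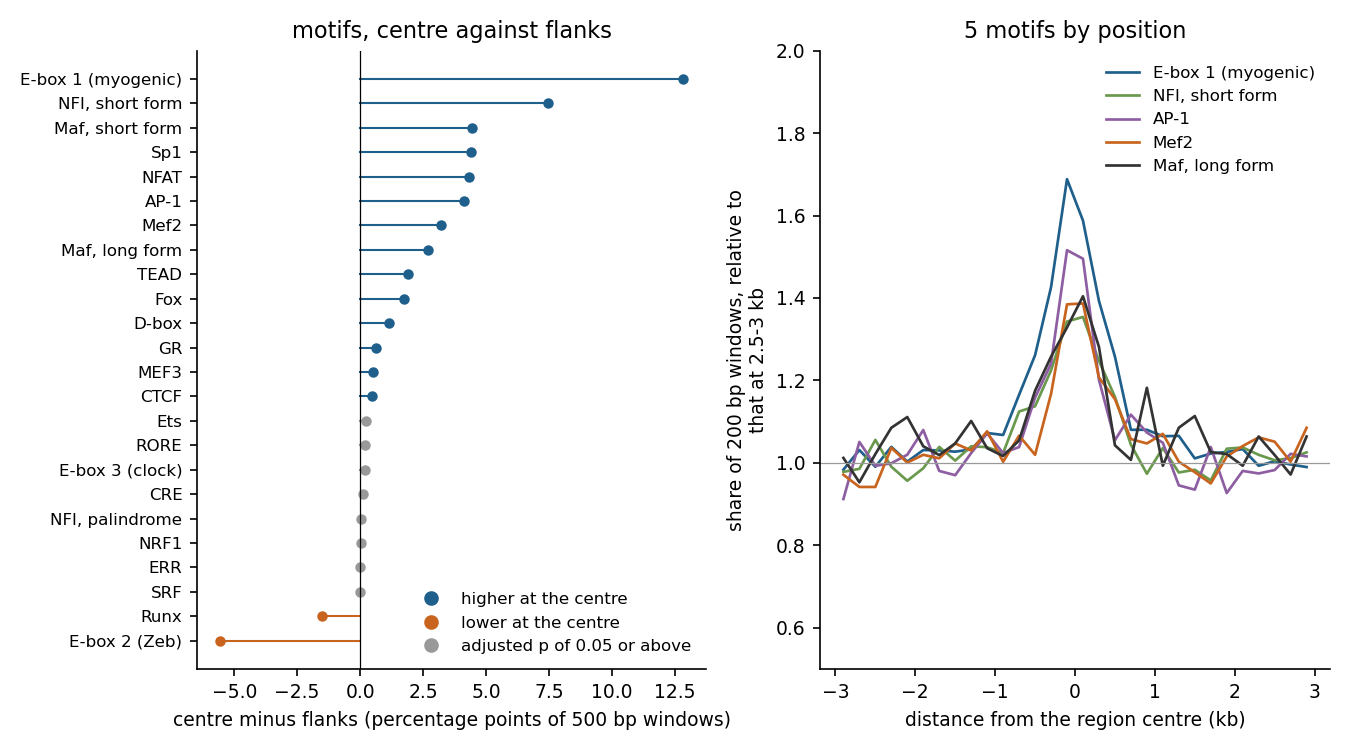
Left, difference between the share of 500 bp windows with a motif at the centre of intragenic distal regions and in their flanks (x axis, percentage points) for 24 motifs (y axis, where the E-box labelled myogenic is CAGCTG, the one labelled Zeb is CAGGTG and the one labelled clock is CACGTG), coloured by call, and right, the share of 200 bp windows with 5 of the motifs by distance from the region centre in kb (x axis), relative to the mean share between 2.5 and 3 kb on both sides. CAGCTG stands apart at 12.8 points on the left, and on the right all 5 curves rise within about 1 kb of the centre.

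Compared with other regions of both lists in the same 500 bp at the centre (Fisher's exact test, two-sided, adjusted over 72 tests, a comparison added after seeing the data), intragenic distal regions differed from promoter regions in all 24 motifs and from intergenic regions in few. CAGCTG stood at 33.6% in intragenic distal regions, against 25.2% in promoter regions (adjusted exact p = 5.10e-47), 34.2% in near intergenic regions (adjusted exact p = 0.594) and 33.7% in far ones (adjusted exact p = 0.999). Mef2 motifs stood at 11.5%, against 3.62% in promoter regions (adjusted exact p = 2.84e-124), 9.61% in near intergenic (adjusted exact p = 0.000449) and 10.8% in far intergenic regions (adjusted exact p = 0.324). GGGCGG stood at 10.5%, against 15.5% in near intergenic regions (adjusted exact p = 3.73e-20) and 57.7% in promoter regions. CAGGTG stood at 28.2%, against 22.2% in far intergenic regions (adjusted exact p = 1.21e-13), and GGAAAA at 41.2%, against 46.6% there (adjusted exact p = 8.27e-09). GR stood at 0.939% against 1.46% in far ones, and AP-1 at 12.6% against 14.2% (adjusted exact p = 0.0149 for each). TTGGCA stood at 29.8% against 32.4% (adjusted exact p = 0.00383) and GGAATG at 25.8% against 28.0% (adjusted exact p = 0.0139). Against far intergenic regions, 2 motifs were higher and 5 lower. The D-box, at 3.41% in both, and MEF3, at 1.07% against 1.18%, did not pass. Among the intragenic distal regions themselves, compared in the same way after seeing the data, those with a Maf peak held TGCTGAC at the centre in 17.0% of cases, against 9.45% of those without (Fisher's test, adjusted exact p = 9.96e-13 over 24 motifs). They also held CAGGTG more often, at 33.2% against 27.8% (adjusted exact p = 0.00112), and CAGCTG in 31.8% against 33.8% (adjusted exact p = 0.542).

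Base composition, compared after seeing the data, differed most between intragenic distal and promoter regions. Intragenic distal regions had a median GC content of 46.2%, against 52.9% in promoter regions, 47.4% in near and 45.6% in far intergenic regions. An observed to expected CpG ratio of 0.6 or more, as in CpG islands, was found in 93 intragenic distal regions (0.677%, interval 0.547 to 0.829), against 45.8% (44.9 to 46.7) of promoter regions. It was also lower than in near intergenic regions, at 2.85% (Fisher's test, two-sided, adjusted exact p = 7.83e-29), and in far ones, at 1.64% (adjusted exact p = 1.76e-07).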

How the data were processed

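ChIP-seq for Maf and H3K27ac had been made in 2 samples per target, with 2 inputs that were not used here. The authors trimmed the reads, aligned them with Bowtie2 (2.3.2 in the submitters' processing notes) and called peaks in each sample. Picard 2.10.3 and bcl2fastq 2.17 are listed there as well. Apart from a false discovery rate threshold for Maf peaks, the settings of the caller and its use of the input are not given in the sources used here. The deposited lists have 6 columns with positions on GRCm38 and a score that is 1 in every row, so positions alone were used, and depth is unknown.

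The lists were joined and classified with GENCODE mouse release M21 and its 21938 protein-coding genes. Starts are those of protein-coding transcripts, a shared base counted as overlap with a Maf peak, and a region inside several genes counted for each. For single values the gene whose main transcript held the centre was taken. Maf shares were compared by Fisher's exact test and motifs by McNemar's exact test. Of the p-values for the left and right flank the larger was taken, and a call needed the same direction in both, with Benjamini-Hochberg adjustment at 0.05. Fisher's and McNemar's tests were checked on simulated data, but the tests within strata and the intervals of differences were not. The simulated windows were random sequence, without the difference in GC content and repeats between centres and flanks. Sequence came from the RefSeq copy of GRCm38. Of 400 entries in 23 gene lists, 398 were found in the annotation.

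Named genes are the 10 with the most regions, those of the 10 longest regions, the 10 over 20 kb with the largest covered share, those with peaks of both Maf lists, the first 10 by position in the Maf replicate 2 list, up to 4 per gene list, 5 genes the study shows, and those next to the limits of the rule. A few genes that these rules name are not reported here. The regions, lists, motifs and tests were chosen with earlier results of these data known. Alternatives changed the distance to starts, the length limit, the agreement of lists, the gene model, the Maf list, the windows and the flanks, and left out each list in turn. Python 3.11.15, numpy 2.4.6, scipy 1.17.1, pysam 0.24.0, samtools 1.23.1 and matplotlib 3.10.9 were used.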

Additional observations from a re-analysis of the deposited data

How the results depend on the processing

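Of 117 values under alternatives, 79 kept their direction and their side of the threshold or stayed close to the value above. The number of intragenic distal regions stayed within 1.5 times of 13733 in all 10 alternatives, and the count of 16 called motifs in all 14. Called motifs that lost the call were Runx (300 bp windows, flanks 3 kb beyond the edge) and CTCF (these 2 settings and each H3K27ac list alone).

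Against promoter regions the difference in Maf share was -1.69 points with no length limit (adjusted exact p = 1.30e-05), -1.19 with the starts of all annotated genes kept free and -0.95 with the starts of all transcripts of protein-coding genes kept free, an alternative added after seeing the data. It was reversed at 0.24 points where the lists shared at least 50% of the region and at 0.91 within strata of length. With a list left out it ranged between -2.50 and 0.021 points, and the value of 0.021 came without Maf replicate 2, where Maf shares rest on 74 peaks. With H3K27ac replicate 1 left out it was -2.50 and with replicate 2 left out -2.21. Against near intergenic regions it was -1.02 with all starts of protein-coding genes kept free (added), -1.29 within strata of length, and -1.13 to -0.096 with a list left out, past the threshold at -1.13 without H3K27ac replicate 1 and -0.95 without replicate 2. Against far intergenic regions it was -1.61 within strata of length and -1.19 to -0.070 with a list left out, past the threshold at -1.19 and -0.84 without H3K27ac replicate 1 and 2. There were 19986 intragenic distal regions without H3K27ac replicate 1 and 19710 without replicate 2, including those of a single list, which were shorter.

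The replicate numbers in the labels are not stated to mark shared chromatin. With the replicate number as a block (Maf replicate n in H3K27ac regions of replicate n), the differences were -1.26 points to promoters, -0.60 to near and -0.62 to far intergenic regions (Cochran-Mantel-Haenszel chi-square test, adjusted p = 1.44e-16, 0.000709 and 0.00125), and the Maf share was 3.15%, since 16 of 19710 regions had a replicate 1 peak.

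The Maf share of 8.34% was 9.37% where the lists shared at least 50% of the region, 5.19% with the first 50% of the Maf replicate 2 list, and 0.109% to 8.34% with a list left out. The intronic share of 92.1% was 92.8% with all annotated starts or all starts of protein-coding genes (added) kept free, 93.8% for regions wholly inside the gene and 92.9% for those in RefSeq genes (added). The first intron share of 32.5% was 34.1% with all annotated starts or all starts of protein-coding genes (added) kept free and 32.9% to 33.7% with a list left out. The share of genes with a region, 24.0%, was 23.1% with 2 kb kept free or with the whole region inside the gene, 21.3% with all annotated starts, 22.0% with all starts of protein-coding genes (added), 22.2% with at least 50% shared and 28.7% to 28.8% with a list left out. The causes of these differences were not tested. Read depth, and so the sensitivity of each list, is unknown, and places in genes depend on the gene models used.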
